A study of Mus musculus with 6 samples.

Results

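The genes of the primary (azurophil) granule and of the promyelocyte, the stage of neutrophil development that makes this granule, were examined in mouse bone marrow cells grown in high potassium. The group holds 10 genes, chosen by name from the 19162 genes of the deposited table. They are the serine protease genes Elane, Prtn3 and Ctsg, the peroxidase gene Mpo, the membrane and secreted protein genes Ms4a3, Fcnb, Nkg7 and Igsf6, and the transcription factor genes Cebpe and Gfi1. All 10 passed the filter on low counts. Messenger RNA had been sequenced from C57BL/6J bone marrow cells kept for 4 days with GM-CSF at 40 ng/mL, which drives the growth of myeloid cells, and the 3 KCl libraries had 34.7 mM of KCl added while the 3 control libraries had none. The libraries carry the numbers 1, 2 and 4 in each group, and the labels do not say whether these were separate mice or cultures, so p-values measure only the spread between these libraries. The labels name the cells as bone marrow cells with no sort, so fewer cells of a type and less RNA per cell cannot be told apart in any value below.

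Neutrophils build their granules in order. Promyelocytes fill the primary granules with elastase, proteinase 3, cathepsin G and myeloperoxidase, which kill and digest microbes, and the transcription of these genes stops as cells pass on to the myelocyte stage, where secondary granule genes take over. C/EBP-alpha, PU.1, RUNX1 and MYB switch on the primary granule genes, GFI1 holds the cells to the neutrophil fate and represses monocyte genes, and C/EBP-epsilon drives the step to secondary granules. GM-CSF cultures of bone marrow hold neutrophil precursors beside monocytes, macrophages and dendritic cells.

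Library totals ran from 14118724 to 21694831 counts. KCl 4 and control 4 stood apart from the other 4 libraries in a way that touches every result below. In 8231 of the 8232 genes whose counts averaged 300 or more (the other had no log2 ratio), CPM (counts scaled to library size) averaged over this pair was nearly that of the other 4 libraries, with an SD of 0.00953 for the log2 ratio. Counting noise gives 0.0442, and every other pair, 14 in all, gave between 0.123 and 0.262. The distance between KCl 4 and control 4 was tied to the other libraries as well. Divided by the SD of the other 4 libraries, it had a median of 1.42 over genes with quartiles of 1.33 and 1.49, a width of 0.161, against widths of 0.997 to 1.85 for the 14 other pairs. Among the members this quotient was 1.34 to 1.53 for 9 genes and 1.11 for Igsf6. Thus, for a member, the mean of KCl 4 and control 4 and the size of the gap between them followed from the other 4 libraries, and which of the pair was higher was the part that did not. No step of this kind is recorded in the sources at hand, and no count was altered before testing. P-values from all 6 libraries may therefore be too small. Where KCl 4 and control 4 differed with the opposite sign to the other libraries, they may instead be too large. Replicate 4 is therefore given apart from replicates 1 and 2.

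**Figure D1:**
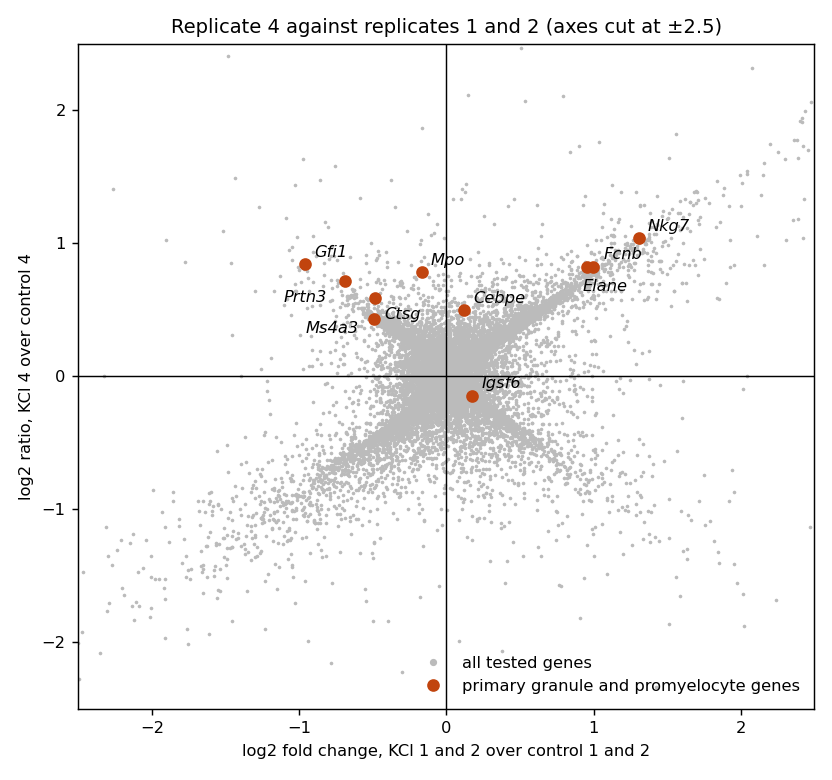
Each point is 1 of the tested genes, with the log2 fold change of KCl 1 and 2 over control 1 and 2 on the horizontal axis and the log2 ratio of KCl 4 over control 4 on the vertical axis. The points form a cross, in which replicate 4 has either the sign of the other replicates or the opposite sign at a similar size; Nkg7, Fcnb and Elane lie on the arm of equal sign, and Gfi1, Prtn3, Ctsg and Ms4a3 on the arm of opposite sign.

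The region before the start of a gene shows whether neighbouring or co-moving genes hold the same short sequences. RefSeq gave a window from 250 bases before to 50 bases after the start (GRCm38.p6) for 9 of the 10 members. Each window was searched on both strands for GAGGAA (a core bound by PU.1), TTNNGNAA (bound by C/EBP proteins), TGNGGT (bound by RUNX proteins) and CAACGG (bound by MYB), and matches are in capitals. Elane and Prtn3 are shown because these neighbouring protease genes differed in the comparison, Ctsg as the third protease, and Fcnb and Nkg7 because they were called with Elane.
Elane, chr10:79886062-79886361, plus strand: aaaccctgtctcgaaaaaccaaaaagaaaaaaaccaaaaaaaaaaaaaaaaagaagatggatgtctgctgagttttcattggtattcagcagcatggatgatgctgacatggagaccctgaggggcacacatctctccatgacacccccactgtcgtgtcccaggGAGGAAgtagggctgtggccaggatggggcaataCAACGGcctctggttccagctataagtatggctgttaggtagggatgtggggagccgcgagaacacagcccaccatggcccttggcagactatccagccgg
Prtn3, chr10:79879417-79879716, plus strand: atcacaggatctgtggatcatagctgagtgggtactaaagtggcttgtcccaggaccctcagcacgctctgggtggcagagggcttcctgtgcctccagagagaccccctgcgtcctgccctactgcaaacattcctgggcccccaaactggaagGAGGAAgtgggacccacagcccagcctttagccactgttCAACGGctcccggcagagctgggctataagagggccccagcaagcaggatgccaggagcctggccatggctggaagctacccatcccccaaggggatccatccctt
Ctsg, chr14:56102525-56102824, minus strand: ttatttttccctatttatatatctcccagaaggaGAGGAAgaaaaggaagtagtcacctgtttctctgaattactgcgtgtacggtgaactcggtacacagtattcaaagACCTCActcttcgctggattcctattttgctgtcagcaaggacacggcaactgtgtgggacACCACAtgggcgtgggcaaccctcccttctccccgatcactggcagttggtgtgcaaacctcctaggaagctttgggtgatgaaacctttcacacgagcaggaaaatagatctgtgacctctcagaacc
Fcnb, chr2:28084829-28085128, minus strand: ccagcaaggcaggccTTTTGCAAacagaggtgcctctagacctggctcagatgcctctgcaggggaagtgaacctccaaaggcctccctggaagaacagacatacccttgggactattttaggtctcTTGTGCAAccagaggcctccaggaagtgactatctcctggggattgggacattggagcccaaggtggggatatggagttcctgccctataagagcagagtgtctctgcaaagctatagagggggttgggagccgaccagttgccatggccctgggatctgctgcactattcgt
Nkg7, chr7:43436888-43437187, plus strand: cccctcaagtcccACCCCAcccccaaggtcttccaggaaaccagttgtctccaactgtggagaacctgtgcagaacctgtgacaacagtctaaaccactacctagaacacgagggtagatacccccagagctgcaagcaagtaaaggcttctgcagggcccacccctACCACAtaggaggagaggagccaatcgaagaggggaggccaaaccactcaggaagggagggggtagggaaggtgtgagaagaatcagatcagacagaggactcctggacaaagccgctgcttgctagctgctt
Elane had GAGGAA starting 85 bases before the start and CAACGG 51 bases before it. Prtn3 had the same pair of motifs at a like spacing, 95 and 56 bases before the start. Of 32851 windows of this length, 28.3% held GAGGAA and 5.12% held CAACGG. Ctsg had 1 GAGGAA and 2 matches to the RUNX motif (in 45.8% of windows), Fcnb had 2 matches to the C/EBP motif (in 40.7%), and Nkg7 had 2 to the RUNX motif. No matches overlapped in these 5 windows. The RefSeq starts of Elane, Prtn3, Fcnb and Nkg7 lie inside the genes as GENCODE annotates them, whose starts are further upstream. Distances here are from the RefSeq start. By GENCODE, both Prtn3 motifs and the CAACGG of Elane lie within the gene. A match is a description of the letters in the window and not evidence of binding.

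The members differed widely in level. On the deposited FPKM scale, which is per gene length, Elane was the highest at 677 ± 55.9 in KCl and 366 ± 64.9 in control (mean ± SD, n = 3 each). Within a library it ranked between the 37th and the 43rd highest gene in KCl and between the 74th and the 111th in control. Ctsg, Mpo and Igsf6 followed with 210 ± 64.3, 154 ± 58.0 and 144 ± 10.8 FPKM in KCl and 231 ± 53.8, 141 ± 46.7 and 139 ± 11.6 FPKM in control. Prtn3, Cebpe and Ms4a3 came next, with group means from 64.5 to 77.6 FPKM in KCl and from 66.7 to 82.1 FPKM in control, and the libraries of these 3 genes overlapped within each group. Those of Ctsg and Mpo overlapped as well, though Ctsg lay above Mpo within every single library. Those of Mpo and Igsf6 also overlapped, while Igsf6 lay above Prtn3 in every library of both groups. Fcnb had 64.1 ± 12.3 FPKM in KCl and 34.0 ± 1.35 FPKM in control. Nkg7 and Gfi1 were the lowest, with 15.7 ± 0.403 and 5.89 ± 2.57 FPKM in KCl and 6.82 ± 1.01 and 7.49 ± 2.30 FPKM in control. Together the 10 genes took 0.265%, 0.204% and 0.286% of all counts in KCl 1, 2 and 4, against 0.265%, 0.201% and 0.187% in control 1, 2 and 4, so the sum separated the groups in replicate 4 only.

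**Figure D2:**
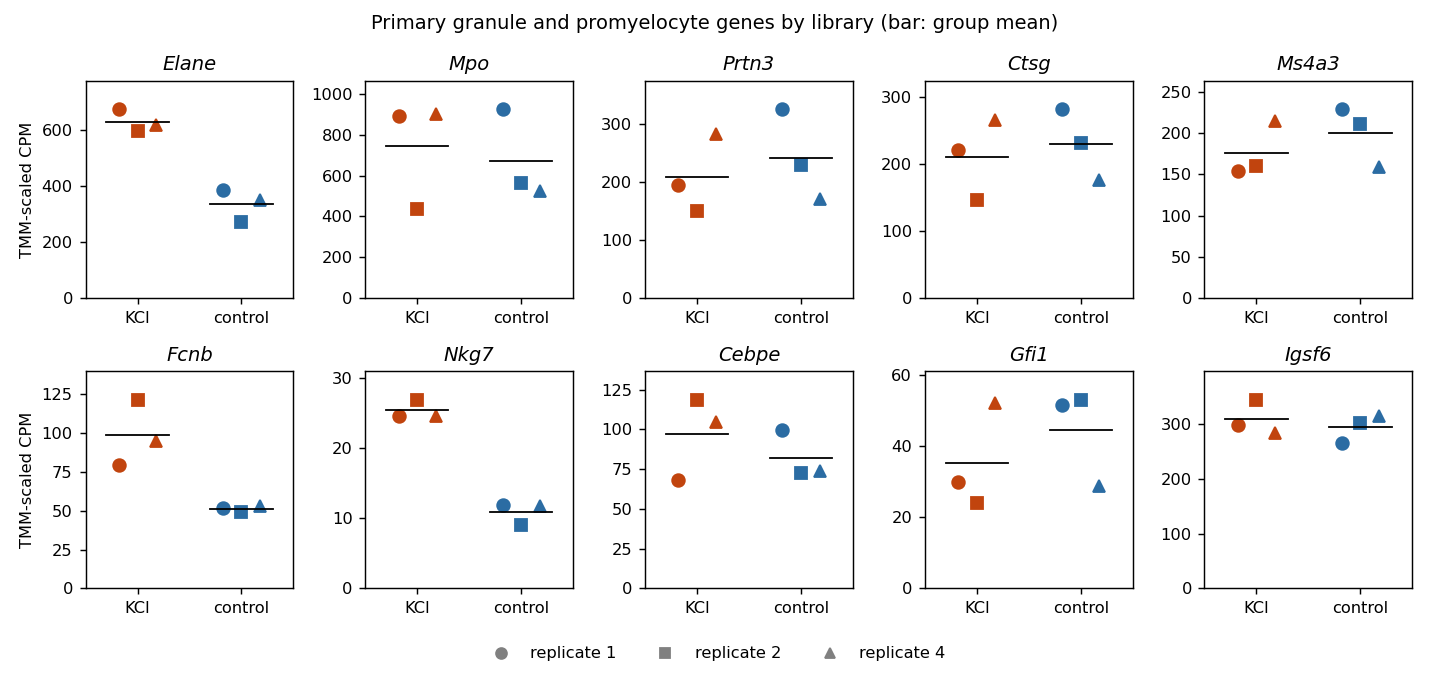
Levels of the 10 genes in TMM-scaled CPM, with 1 point per library, KCl on the left and control on the right of each panel, marker shapes for the replicate number and a bar at the group mean. The groups do not overlap for Elane, Fcnb and Nkg7. For Mpo, Prtn3, Ctsg, Ms4a3 and Gfi1 the triangle (replicate 4) is the highest KCl point and the lowest control point.

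The comparison of KCl with control asks which of these genes differ with added KCl. No group had another salt added, so potassium, chloride and added salt as such cannot be told apart. With all 6 libraries, 3 of the 10 members rose (Elane, Fcnb and Nkg7), 0 fell and 7 did not pass, by the quasi-likelihood test of edgeR, with p-values adjusted over 13326 genes (Benjamini-Hochberg) and a threshold of 0.05. Of all tested genes 22.9% passed, 12.4% being higher and 10.5% being lower in KCl. No member had an unadjusted p under 0.05 on the lower side, and DESeq2 and limma-voom also called 0 members lower. These results include replicate 4, whose sign was opposite in Prtn3, Ctsg, Ms4a3 and Gfi1. Their unadjusted p (edgeR) was 0.514, 0.645, 0.350 and 0.371 with 6 libraries. In replicates 1 and 2 it was 0.0263, 0.0822, 0.00164 and 0.00085. For Elane, Fcnb and Nkg7 the unadjusted p was smaller with 6 libraries. The unadjusted result on the lower side thus depended on replicate 4. The median log2 fold change of the members was 0.11, against -0.00 over all tested genes. In replicates 1 and 2 alone, 0 of the 10 passed (with no filter on low counts, Nkg7 passed as higher and Gfi1 as lower, with edgeR adjusted p = 0.0411 and 0.0447), where 0.458% of 13525 genes did (0.333% higher and 0.126% lower in KCl) and 29.8% had an unadjusted p under 0.05; 6 of the members had an unadjusted p under 0.05 there, namely Elane, Fcnb and Nkg7 on the higher side and Gfi1, Ms4a3 and Prtn3 on the lower side.

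Elane encodes neutrophil elastase, a serine protease of the primary granule. It stood at 672, 595 and 615 CPM (scaled by TMM) in KCl 1, 2 and 4, against 385, 270 and 348 CPM in control 1, 2 and 4. Every KCl library lay above every control library, as it did for 20.2% of all tested genes, while 18.4% had every KCl library below. The log2 fold change was 0.91 ± 0.14 (SE, n = 3 per group, edgeR adjusted p = 0.00745), and 0.95 ± 0.19 in replicates 1 and 2 (edgeR adjusted p = 0.0811). KCl 4 exceeded control 4 by 0.82 on the log2 scale.

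Fcnb encodes ficolin B, a lectin of the complement system made by neutrophil and monocyte precursors. Its level was 79.3, 122 and 95.0 CPM in KCl 1, 2 and 4, against 51.6, 49.2 and 53.4 CPM in control 1, 2 and 4. The groups did not overlap, and the spread was wide in KCl and narrow in control. The log2 fold change was 0.94 ± 0.15 (edgeR adjusted p = 0.00948), with 0.99 ± 0.22 in replicates 1 and 2 (edgeR adjusted p = 0.0855) and 0.83 in replicate 4.

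Nkg7 encodes a granule membrane protein best known from natural killer cells and cytotoxic T cells, and it is also expressed in early granulocyte precursors of the mouse. It had 24.6, 26.9 and 24.6 CPM in KCl 1, 2 and 4, against 11.8, 8.97 and 11.7 CPM in control 1, 2 and 4. This was the largest log2 fold change among the members at 1.23 ± 0.12 (edgeR adjusted p = 0.00328), with 1.31 ± 0.17 in replicates 1 and 2 (edgeR adjusted p = 0.0601) and 1.04 in replicate 4. Genes of natural killer and T cells were mostly at low counts. The cytotoxic genes Prf1 and Gzma had at most 5 and 1 counts in a library, Gzmb had 19, 21 and 22 counts in KCl 1, 2 and 4, against 16, 29 and 13 in control 1, 2 and 4 (log2 difference 0.18 ± 0.26, edgeR adjusted p = 0.694), the T cell receptor chain gene Cd3e at most 10, and the receptor gene Klrk1 fell to 15, 27 and 25 counts in KCl 1, 2 and 4, against 154, 125 and 94 in control 1, 2 and 4 (log2 fold change -2.40 ± 0.25, edgeR adjusted p = 0.00353). Klrk1 did not pass in replicates 1 and 2 alone (edgeR adjusted p = 0.0686). Of the 12 natural killer and T cell genes listed, 4 could be tested, 0 rose and 1 fell. The list summed to 57.0, 52.5 and 53.6 CPM in KCl 1, 2 and 4, against 119.8, 69.3 and 96.6 in control 1, 2 and 4, most of it from the chemokine gene Ccl5.

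The other 2 serine protease genes and Mpo did not pass the test. Prtn3 (proteinase 3) stood at 195, 149 and 282 CPM in KCl 1, 2 and 4, against 325, 228 and 171 CPM in control 1, 2 and 4. Both KCl libraries of replicates 1 and 2 were below both control libraries, while KCl 4 was above control 4. Its log2 difference was -0.69 ± 0.22 in replicates 1 and 2 (edgeR adjusted p = 0.127) and 0.72 in replicate 4, which gave -0.21 ± 0.31 over 6 libraries (edgeR adjusted p = 0.687).

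Ctsg (cathepsin G) followed the same order. It had 221, 146 and 266 CPM in KCl 1, 2 and 4, against 282, 231 and 176 CPM in control 1, 2 and 4. The log2 difference was -0.48 ± 0.22 in replicates 1 and 2 (edgeR adjusted p = 0.215), 0.59 in replicate 4 and -0.12 ± 0.26 over all (edgeR adjusted p = 0.778).

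Mpo, whose product makes hypochlorous acid from hydrogen peroxide, varied widely between libraries of a group. It had 894, 436 and 902 CPM in KCl 1, 2 and 4, against 926, 566 and 524 CPM in control 1, 2 and 4. The groups overlapped across nearly their whole ranges, since KCl 1 lay beside control 1 and KCl 2 was the lowest library of all. The log2 difference was -0.17 ± 0.41 in replicates 1 and 2 (edgeR adjusted p = 0.806), 0.78 in replicate 4 and 0.15 ± 0.34 over all (edgeR adjusted p = 0.803).

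Within a library, the ratio of 2 genes does not depend on how libraries are scaled, and ratios chosen after the values were seen set Elane against Prtn3, Mpo and Ctsg. The FPKM of Elane was 11.1, 12.8 and 7.03 times that of Prtn3 in KCl 1, 2 and 4, against 3.81, 3.80 and 6.55 times in control 1, 2 and 4. Elane over Mpo was 3.94, 7.14 and 3.57 in KCl 1, 2 and 4, against 2.18, 2.49 and 3.48 in control 1, 2 and 4. Elane over Ctsg was 3.32, 4.43 and 2.52 in KCl 1, 2 and 4, against 1.49, 1.27 and 2.15 in control 1, 2 and 4. The groups did not overlap for these 3 ratios, but the gap between KCl 4 and control 4 was small for Prtn3 and Mpo. Nkg7 over Ms4a3 was 0.270, 0.286 and 0.195 in KCl 1, 2 and 4, against 0.0876, 0.0720 and 0.125 in control 1, 2 and 4, also without overlap. Elane and Nkg7 separated the groups on their own as well, and how often other pairs of genes do so was not counted. Elane over Gfi1 was 146, 161 and 76.7 in KCl 1, 2 and 4, against 48.5, 33.0 and 78.5 in control 1, 2 and 4, and there the groups overlapped in replicate 4. The ratio of Ctsg to Prtn3 stayed between 2.79 and 3.35 in KCl and between 2.57 and 3.05 in control, with overlapping groups. Elane and Prtn3 lie 3072 bases apart on chromosome 10 of mm10 (GENCODE M21), Prtn3 from 79874476 to 79883174 and Elane from 79886247 to 79888215, both protein-coding and on the plus strand. Elane made up 25.5%, 28.0% and 21.7% of the members' counts in KCl 1, 2 and 4, against 14.7%, 13.5% and 18.7% in control 1, 2 and 4.

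**Figure D3:**
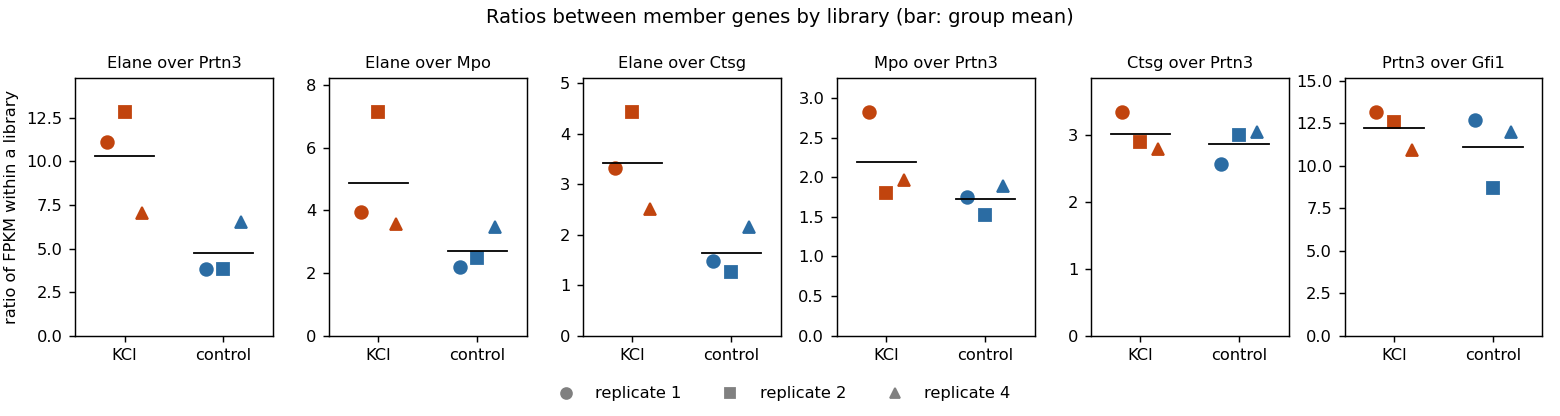
FPKM of 1 member divided by that of another in the same library, with 1 point per library, KCl on the left and control on the right, marker shapes for the replicate number and a bar at the group mean. The 3 ratios with Elane on top lie higher in KCl, with the KCl and control points of replicate 4 closest to each other, while the ratios among the other genes overlap.

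Ms4a3, a membrane protein of the granulocyte-monocyte progenitor and promyelocyte, had 155, 160 and 215 CPM in KCl 1, 2 and 4, against 229, 212 and 159 CPM in control 1, 2 and 4. In replicates 1 and 2 the libraries of a group lay close together, and the log2 difference was -0.49 ± 0.08 (edgeR adjusted p = 0.0686). KCl 4 exceeded control 4 by 0.43 on the log2 scale, and over 6 libraries the difference was -0.18 ± 0.18 (edgeR adjusted p = 0.588).

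The transcription factor gene Gfi1 had the largest difference of this kind. It stood at 29.9, 24.0 and 52.2 CPM in KCl 1, 2 and 4, against 51.7, 53.2 and 28.9 CPM in control 1, 2 and 4. KCl 4 was level with control 1 and 2, and control 4 with KCl 1 and 2. The log2 difference was -0.96 ± 0.13 in replicates 1 and 2 (edgeR adjusted p = 0.0651), 0.84 in replicate 4 and -0.34 ± 0.35 over all (edgeR adjusted p = 0.604).

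Cebpe, which encodes C/EBP-epsilon, had 68.3, 119 and 104 CPM in KCl 1, 2 and 4, against 99.4, 72.6 and 73.9 CPM in control 1, 2 and 4. The groups overlapped, because KCl 1 was the lowest library and control 1 lay near KCl 4. The log2 fold change was 0.24 ± 0.23 (edgeR adjusted p = 0.563), with 0.12 ± 0.30 in replicates 1 and 2 (edgeR adjusted p = 0.814) and 0.50 in replicate 4. When KCl 1 and control 1 were left out it was 0.60 ± 0.08 (edgeR adjusted p = 0.0487). That call rests on replicate 2 and on the pair of KCl 4 and control 4.

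Igsf6, an immunoglobulin-superfamily receptor of myeloid cells that monocytes, macrophages and dendritic cells also express, lay in a narrow range. It had 299, 345 and 285 CPM in KCl 1, 2 and 4, against 266, 303 and 315 CPM in control 1, 2 and 4. The groups overlapped and the log2 fold change was 0.07 ± 0.10 (edgeR adjusted p = 0.67), with 0.18 ± 0.11 in replicates 1 and 2 (edgeR adjusted p = 0.331) and -0.14 in replicate 4. The span of the gene lies wholly within that of Mettl9 on the opposite strand (chromosome 7, 121064067 to 121074572). Only gene spans were compared, so whether exons of the 2 genes overlap was not examined. The strand setting of the counting is not known either. Mettl9 had 999 to 1492 counts per library, against 4461 to 6625 for Igsf6.

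**Figure D4:**
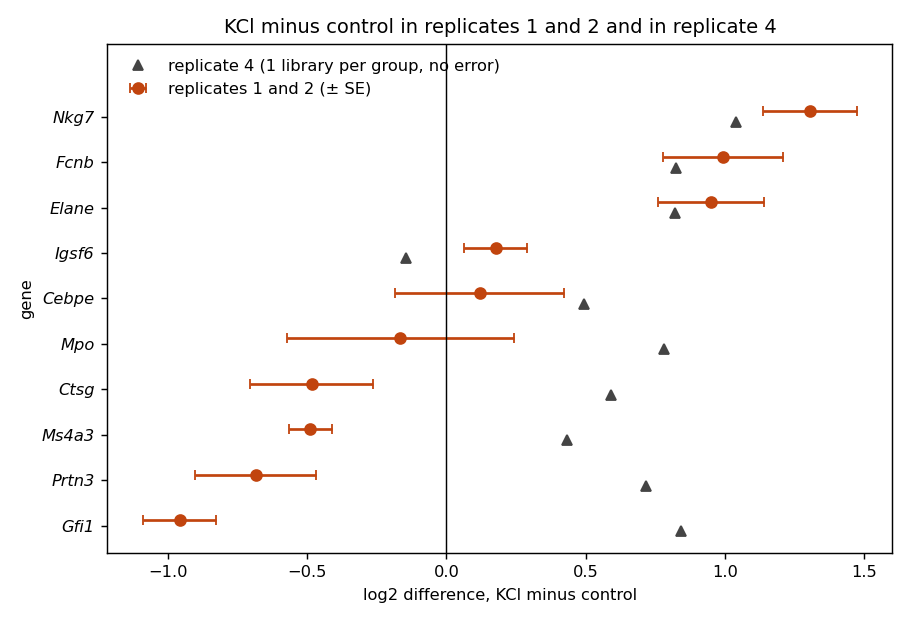
Log2 difference of KCl minus control for each of the 10 genes, with circles for replicates 1 and 2 (bars are ± SE from edgeR) and triangles for replicate 4, which has 1 library per group and no error. Nkg7, Fcnb and Elane have both markers at 0.82 or higher, and Gfi1, Prtn3, Ms4a3 and Ctsg have the circle below 0 and the triangle above it.

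In 4 of the 10 members (Prtn3, Ctsg, Ms4a3 and Gfi1), KCl 1 and 2 were both below control 1 and 2 while KCl 4 was above control 4, a pattern seen in 13.8% of all tested genes. Without regard to replicate 4, KCl 1 and 2 were both below in 32.4% and both above in 31.6% of all tested genes. For 41.8% of all tested genes the mean difference in replicates 1 and 2 and the difference in replicate 4 had opposite signs. The test of this difference itself, the interaction of KCl with replicate 4 in edgeR, called 0 of the 10 members and 0.0075% of all tested genes (1 of 13326), with an unadjusted p under 0.05 for those 4 members and for 11.2% of all tested genes. Its largest value was for Gfi1, whose KCl difference was higher by 1.81 ± 0.23 on the log2 scale in replicate 4 (edgeR's interaction test, unadjusted p = 0.000558, adjusted p = 0.323). It was 1.40 ± 0.38 for Prtn3, 1.08 ± 0.39 for Ctsg and 0.92 ± 0.13 for Ms4a3 (edgeR adjusted p = 0.327, 0.415 and 0.323). This test shares the limit on replicate 4 given above. The size of the gap between KCl 4 and control 4 followed from the other 4 libraries. These interaction values therefore rest on the difference in replicates 1 and 2 and on the sign in replicate 4. Their size and p-values give no separate measure of replicate 4.

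Some genes of later neutrophil stages had the opposite order in the same libraries. Of 12 mature neutrophil genes, 4 (Cxcr2, Retnlg, Ly6g and Il1b) were higher in KCl 1 and 2 than in control 1 and 2 and lower in KCl 4 than in control 4. So were 4 of 12 genes listed for secondary and tertiary granules (Mmp8, Mmp9, Mmp25 and Lcn2), against 11% of all tested genes. None of the 10 members showed that order, and none of these 24 genes showed the order of Gfi1. Cxcr2, the chemokine receptor of mature neutrophils, had 134, 206 and 68.9 CPM in KCl 1, 2 and 4, against 51.8, 78.7 and 158 CPM in control 1, 2 and 4. With each gene set against its mean over 6 libraries, the median of the mature neutrophil list stood at 0.12, 0.52 and -0.21 in KCl 1, 2 and 4 and at -0.57, -0.16 and 0.21 in control 1, 2 and 4 on the log2 scale. The median of the 10 members stood at 0.01, -0.01 and 0.39 in KCl 1, 2 and 4 and at 0.24, -0.12 and -0.36 in control 1, 2 and 4. The part of neutrophil stage in the members' values was not tested.

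**Figure D5:**
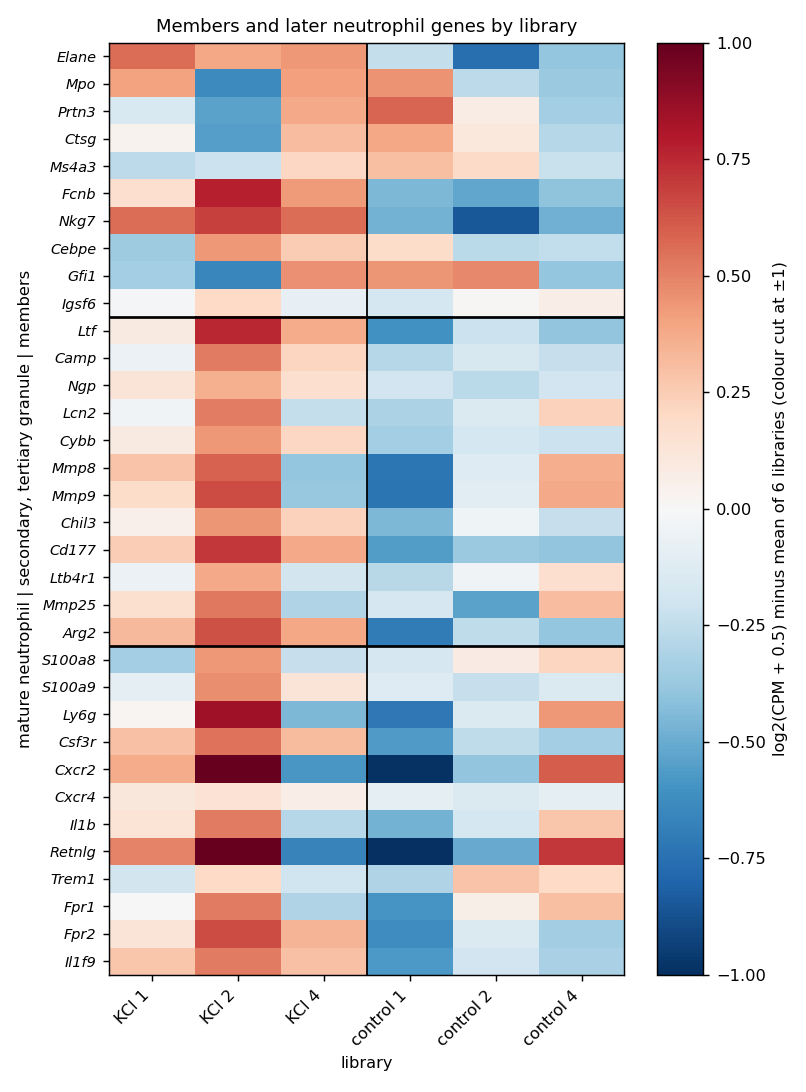
Level of each gene in each library as log2(CPM + 0.5) minus its mean over 6 libraries, KCl left of control. The 10 members are at the top, 12 genes listed for secondary and tertiary granules in the middle and 12 mature neutrophil genes at the bottom. Red is above and blue below the gene's mean; Prtn3, Ctsg, Ms4a3 and Gfi1 are red in KCl 4 and blue in control 4, where Cxcr2, Retnlg, Mmp8 and Mmp9 have the reverse.

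A list of other granule cargo genes was counted by direction, where 12.4% of all tested genes were called higher and 10.5% lower in KCl. The same shares stand beside the counts of the lists that follow. Of 12 listed, 11 were tested, 4 rose (Cd63, Hp, Lyz2 and Slpi), 0 fell and 7 did not pass, with a median log2 fold change of 0.26 against -0.00 over all tested genes. Lyz2, the lysozyme gene of myeloid cells, stood at 8742, 11569 and 9515 CPM in KCl 1, 2 and 4, against 4769, 5933 and 5651 CPM in control 1, 2 and 4 (log2 fold change 0.87 ± 0.14, edgeR adjusted p = 0.00823). The granule membrane tetraspanin gene Cd63 rose by 0.57 ± 0.07 and haptoglobin, Hp, by 0.76 ± 0.10 (edgeR adjusted p = 0.00485 and 0.00561). In replicates 1 and 2 alone none of the list passed (edgeR adjusted p = 0.089 for Lyz2, 0.0686 for Cd63 and 0.0708 for Hp). Hp and Slpi, though on this list, are known as products of the secondary granule, and lysozyme and Cd63 are also abundant in macrophages. Ctsc, which encodes the dipeptidyl peptidase that activates elastase, proteinase 3 and cathepsin G, averaged 715 CPM in KCl and 771 CPM in control and did not pass (-0.11 on the log2 scale). Prss57, another serine protease gene of the primary granule, had the order of Prtn3, with 17.5, 16.2 and 25.5 CPM in KCl 1, 2 and 4, against 28.1, 23.7 and 17.2 CPM in control 1, 2 and 4.

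Of 10 genes of the machinery that sorts, folds and releases granule proteins, 1 rose (Lyst), 2 fell (Ap3b1 and Unc13d) and 7 did not pass, with a median of -0.05. Ap3b1, a subunit of the AP-3 adaptor that carries elastase to granules, fell by 0.35 ± 0.07 on the log2 scale (edgeR adjusted p = 0.0188), Lyst, a regulator of granule size, rose by 0.34 ± 0.08 (0.0286), and Unc13d, which primes granules for release, fell by 0.16 ± 0.04 (0.0445). Leaving out single libraries ended each call: edgeR's adjusted p was 0.0577 to 0.0697 for Ap3b1 without KCl 2, KCl 4 or control 4, 0.0502 to 0.0856 for Lyst without any library but control 2, and 0.0569 to 0.169 for Unc13d without any 1 library. None of these 10 genes passed in replicates 1 and 2 alone.

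Among 12 transcription factor genes of this stage, 5 rose (Cebpa, Cebpb, Spi1, Runx1 and Id1), 1 fell (Id2) and 6 did not pass, with a median of 0.23. Cebpa, which encodes the factor that starts granulocyte development, had 173, 140.5 and 150.4 CPM in KCl 1, 2 and 4, against 90.9, 88.4 and 95.3 CPM in control 1, 2 and 4 (log2 fold change 0.76 ± 0.09, edgeR adjusted p = 0.00423). Runx1 rose by 0.47 ± 0.05 (edgeR adjusted p = 0.00404), and Id2, an inhibitor of E-box factors, fell by 0.75 ± 0.08 on the log2 scale (edgeR adjusted p = 0.00405). In replicates 1 and 2 alone none of the 12 passed, and Cebpa, Runx1 and Id2 each had an edgeR adjusted p of 0.0686. Myb, which encodes an activator of Elane and Mpo, averaged 80.4 CPM in KCl and 73.0 CPM in control and did not pass. The Gfi1 relative Gfi1b had the order of Gfi1 at low levels, with means of 6.61 CPM in KCl and 7.55 CPM in control.

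Markers of the neighbouring stages and of other cell types moved beside the members. Of 12 genes listed for secondary and tertiary granules, 5 rose (Cd177, Arg2, Ngp, Ltf and Cybb) and 0 fell (median 0.45). Arg2 was counted as listed, and whether its product lies in these granules was not examined. Of 12 mature neutrophil genes, 4 rose (Csf3r, Il1f9, Cxcr4 and Fpr2) and 0 fell (median 0.34). Of these named genes, Cd177 rose by 0.89 ± 0.13, Arg2 by 0.91 ± 0.14 and Csf3r, the receptor gene for G-CSF, by 0.77 ± 0.11 on the log2 scale. Ngp (0.44 ± 0.08) did not pass when control 4 was left out (edgeR adjusted p = 0.0557) and Cxcr4 (0.22 ± 0.05) without control 2, control 4 or KCl 4 (edgeR adjusted p = 0.0558 to 0.0755). Of 12 monocyte genes, 7 rose and 0 fell (median 0.51), among them Ms4a6c (1.16 ± 0.13), Cd14 (0.77 ± 0.10) and Ly86 (0.60 ± 0.08), and the list summed to 2680, 2999 and 2710 CPM in KCl 1, 2 and 4, against 2023, 2319 and 2308 in control 1, 2 and 4. Of 9 stem and progenitor genes tested, 1 rose (Kit, 0.93 ± 0.06), 3 fell (Hoxa9, Slamf1 and Sox4) and 5 did not pass. Of 12 macrophage and dendritic cell genes, 1 rose (C1qc) and 4 fell, and of 12 eosinophil, basophil and mast cell genes 0 rose and 6 fell. Of 4 erythroid and megakaryocyte genes tested, 0 passed. In replicates 1 and 2 alone, Kit, C1qc, Ear1, Ear2, Ear6 and Prg2 were the genes of these lists that passed. The part of these cell types in the members' values was not tested.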

How the data were processed

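Groups and replicate numbers came from the sample titles. Per the labels' protocols, total RNA was taken with Trizol and sequenced on an Illumina instrument. The submitters' processing notes say that the build was mm10 and the tools named are HISAT2 2.0.4, edgeR and StringTie 1.3.3b. Which program counted reads, and with which strand setting, is not given in the sources used here. The authors deposited whole-number read counts and FPKM values for 19162 genes. FPKM equals the deposited count over library total and a fixed gene length, to a relative deviation of 5.05e-05 in 12489 genes with at least 10 counts in every library, so FPKM served for levels between genes and not for tests.

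Tests used the deposited counts and edgeR 4.0.16 under R 4.3.3: filterByExpr (minimum count 10, minimum total 15), TMM scaling and the robust quasi-likelihood test, 2-sided, on the whole table. Differences are KCl minus control on the log2 scale, with SE. The ratio of KCl 4 over control 4 used a pseudocount of 0.5 CPM and has no test. On simulated counts of 13326 genes with 50 changed at each fold, the 6-library test called 36 of 50 genes changed 1.5-fold and 49 changed 2-fold, the test of replicates 1 and 2 called 26 and 48, and the interaction test called 3 and 29. The simulation gave every gene the same dispersion and made all libraries independent. Its counts therefore do not give the share of changes that these tests would find in the real libraries. Coordinates came from GENCODE M21, which held 19049 of the 19162 gene IDs and all 10 members.

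The members, lists and tests were chosen with earlier results of these data known, including patterns that earlier work had shown. Named genes were the 10 members and up to 3 genes with the smallest p of each list; other list members named as examples were chosen after their values were seen. Alternatives were RLE, upper-quartile and no scaling, 2 other filters, the replicate number as a block, replicate 4 as a batch term, DESeq2 1.42.0, limma-voom (limma 3.58.1), and each library or replicate number left out.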

Additional observations from a re-analysis of the deposited data

How the results depend on the processing

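Elane, Fcnb and Nkg7 passed under all 18 alternatives but the one without replicate 4, where edgeR's adjusted p was 0.0811, 0.0855 and 0.0601. Every other alternative kept KCl 4, control 4 or both, so it could not show whether these calls hold without that pair. The count of members that rose was 3 in the main test and ran from 0 to 4 when libraries were left out. Cebpe was the added member, without replicate 1. The count of members that fell was 0 under these 18 alternatives, those with libraries left out included. Log2 fold changes ranged from 0.77 to 1.01 for Elane, 0.73 to 1.08 for Fcnb and 1.06 to 1.32 for Nkg7. For all genes the count was 3057, against 1573 with replicate 4 as a batch term and 62 to 2851 with libraries left out. Same-numbered libraries did not deviate together from their group means (correlations over 10481 genes of 0.0288, -0.0999 and -0.981 for numbers 1, 2 and 4). Those means include replicate 4, so the correlations cannot decide whether the numbers pair the samples. The replicate block called 1678 genes with 6 libraries, and 682 in replicates 1 and 2 in place of 62. That block called 5 members in replicates 1 and 2, Elane and Nkg7 higher and Prtn3, Ms4a3 and Gfi1 lower (edgeR adjusted p = 0.0421, 0.0462, 0.0374, 0.0495 and 0.0455). Replicates 1 and 2 gave 136 genes by library size only, with Nkg7 among them (0.0496), and 182 with no filter, with Nkg7 (0.0411) and, on the lower side, Gfi1 (0.0447). The interaction gave 3 and 4 genes under these settings, in place of 1, and no member in its 6 fits.

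With 6 libraries or with libraries left out, the 7 other members did not pass apart from Cebpe without replicate 1, and values near 0 changed sign when libraries were left out. With single libraries or replicate numbers left out, the log2 fold change ran from -0.17 to 0.44 for Mpo, from -0.69 to 0.11 for Prtn3, from -0.48 to 0.085 for Ctsg, from -0.49 to 0.010 for Ms4a3, from -0.0075 to 0.60 for Cebpe, from -0.96 to 0.019 for Gfi1 and from -0.014 to 0.18 for Igsf6. Leaving out replicate 4 gave the lowest value for Mpo, Prtn3, Ctsg, Ms4a3 and Gfi1. In each of these genes the difference was below 0 in replicates 1 and 2 and above 0 in replicate 4. Why replicate 4 had the other sign was not tested.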

Other observations

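Plppr3, which shares 159 bases with the annotated Prtn3 gene on the opposite strand, had 629, 273 and 714 counts in KCl 1, 2 and 4, against 887, 639 and 307 in control 1, 2 and 4, not scaled for library size. KCl 4 was above control 4, as for Prtn3. Epx, the eosinophil peroxidase gene and a relative of Mpo, fell by 0.97 ± 0.09 on the log2 scale (edgeR adjusted p = 0.00299), with 579, 480 and 549 CPM in KCl 1, 2 and 4, against 1126, 999.9 and 1019 CPM in control 1, 2 and 4, while Mpo did not pass.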
